A study of Mus musculus with 15 samples.

Results

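The ectodysplasin axis was described through 5 genes of 36528 listed in each library: the ligand gene Eda, the receptor genes Edar and Eda2r, the related receptor gene Tnfrsf19, whose product is called TROY, and the adaptor gene Edaradd. They were taken by symbol after mapping the files' Entrez identifiers, and all 5 passed the filter on low counts. They were selected on their fold changes against control, already known from these libraries, so values against control are given as a description, without a test. PolyA RNA was sequenced from cells sorted from basal cell carcinomas of mouse skin, in 3 libraries at 14 days of vismodegib (which blocks SMO and with it Hedgehog signalling), 8 libraries at 6 days of vismodegib and 4 libraries labelled control. What the control mice received is not stated. All groups carried K14Cre-ER, an inducible Cre driven by the promoter of keratin 14, a gene of basal keratinocytes. All also carried conditional alleles of the Hedgehog receptor gene Ptch1 (Ptch1fl/fl) and of Trp53 (p53fl/fl), and the reporter Lgr5GFP. The sources used here give no age, sort gate or number of animals, so p-values measure the spread between libraries, which may be technical.

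Ectodysplasin is a membrane-bound ligand of the tumour necrosis factor (TNF) family that is cut free by furin-type proteases. One splice form binds EDAR and a slightly shorter one binds EDA2R, also called XEDAR. EDAR recruits EDARADD through a death domain and signals through TRAF6, TAK1 and the IKK complex to NF-kB. The pathway is needed for hair placodes, teeth and sweat glands, and its loss causes hypohidrotic ectodermal dysplasia. TROY resembles both receptors but is not known as a receptor of ectodysplasin.

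Total counts ran from 27336935 to 256569828 per library. Levels are CPM, the reads of a gene scaled to one common library size, here with TMM factors, and 3 reads, the floor for a count of 0 (counting error only), equal 0.11 CPM in the shallowest library. Sample identifiers given by the submitters form 3 separate ranges of numbers, not named as batches. Range A held 5 6-day and 3 control libraries, range B 3 6-day libraries and 1 control, and range C the 3 14-day libraries alone, so 14 days and range C cannot be told apart. The 7 keratinocyte markers summed to 17800 to 34900 CPM at 14 days, 18600 to 24700 CPM at 6 days and 17700 to 32200 CPM in control. The highest sums were in 14-day replicate 1 (34900 CPM) and control replicate 1 (32200 CPM). The 6 fibroblast markers summed to at most 21.4 CPM, the 4 endothelial markers to at most 3.91 CPM and the 5 skeletal muscle markers to at most 4.55 CPM. The 5 melanocyte markers summed to 57.1 to 389 CPM at 14 days, 84.1 to 886 CPM at 6 days and 43.8 to 670 CPM in control. The 6 leukocyte markers summed to 16.6 to 25.1 CPM at 14 days, against 1.05 to 9.52 CPM at 6 days and 4.01 to 15.8 CPM in control. Lum was at 0 in control, Emcn at 6 days and in control, and Des at 14 days. In bulk libraries fewer cells of a type and less RNA per cell cannot be told apart.

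Upstream windows are shown for the 3 members with the largest log2 fold change against control at either time: Edar, Tnfrsf19, which has 2 annotated starts, and Eda. Each is the 250 bases before a RefSeq transcription start on GRCm38.p6, read on the gene's strand, with matches to searched motifs in capitals. The bases past the start were found in an annotated transcript for Eda, but not for Edar or either Tnfrsf19 start. The Edar window lies on chromosome 10 from 58675697 to 58675946 (minus strand), the Eda window on chromosome X from 99975356 to 99975605 (plus strand), and the Tnfrsf19 windows on chromosome 14 from 61046856 to 61047105 and from 61037988 to 61038237 (minus strand).
Edar: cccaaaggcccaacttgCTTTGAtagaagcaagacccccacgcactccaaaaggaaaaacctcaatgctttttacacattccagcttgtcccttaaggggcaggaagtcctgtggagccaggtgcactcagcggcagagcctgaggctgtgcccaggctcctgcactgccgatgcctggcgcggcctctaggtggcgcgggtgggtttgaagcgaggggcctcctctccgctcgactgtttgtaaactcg
Eda: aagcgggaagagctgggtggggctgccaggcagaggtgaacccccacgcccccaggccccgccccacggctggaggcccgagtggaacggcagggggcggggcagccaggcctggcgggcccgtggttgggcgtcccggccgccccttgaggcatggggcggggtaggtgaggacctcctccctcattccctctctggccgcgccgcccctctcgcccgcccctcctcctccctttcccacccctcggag
Tnfrsf19, outer start: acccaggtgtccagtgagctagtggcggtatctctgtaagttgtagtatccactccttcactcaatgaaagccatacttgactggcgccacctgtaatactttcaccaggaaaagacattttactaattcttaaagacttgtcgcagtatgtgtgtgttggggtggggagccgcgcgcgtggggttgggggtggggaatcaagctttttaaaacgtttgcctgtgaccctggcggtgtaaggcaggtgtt
Tnfrsf19, inner start: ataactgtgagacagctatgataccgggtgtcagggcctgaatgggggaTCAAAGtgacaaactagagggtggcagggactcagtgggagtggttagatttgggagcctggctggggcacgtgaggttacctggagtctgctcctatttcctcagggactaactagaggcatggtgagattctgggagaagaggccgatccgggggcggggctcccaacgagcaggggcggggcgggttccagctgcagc
The motifs, sought on both strands, were the TCF/LEF core CTTTGA, the kappaB motif of NF-kB and the GLI site GACCACCCA. No window held more than 1 match, so none overlapped. The Edar window held 1 TCF/LEF match, 233 to 228 bases before the start, and the inner Tnfrsf19 window held 1, from 201 to 196 bases before it. The Eda window, the outer Tnfrsf19 window and the Edaradd window held no match. The Eda2r window held 1 match to the loose kappaB pattern (GGCCCTTCCC, a match on the other strand). The TCF/LEF core was present in 13.8% of 32851 such windows, the loose kappaB pattern in 17.6% and the GLI site in 0.225%. These matches describe letters in the windows only.

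Transcripts of the ligand averaged higher in both vismodegib groups than in control, with overlap between libraries. Eda (Entrez Gene 13607, chromosome X, 99975606 to 100400760) had 11.9, 15.9 and 15.03 CPM at 14 days, a lowest value of 8.02, a median of 19.4 and a highest of 30.5 CPM at 6 days, and 3.605, 7.13, 10.8 and 12.3 CPM in control. The 6-day and control libraries overlapped, with 6 of 8 6-day libraries above the highest control, and 2 of 3 14-day libraries stood above it. Mean levels were 18.5 ± 7.54 CPM at 6 days (SD, n = 8) and 8.46 ± 3.91 CPM in control (SD, n = 4), a log2 fold change of 1.13 (SE 0.38). At 14 days the mean was 14.3 ± 2.10 CPM (SD, n = 3), a log2 fold change of 0.75 (SE 0.45) against control. Eda was higher at 6 days within range A (log2 fold change 1.05) and within range B (0.97). Gene counts do not tell the EDAR-binding splice form from the EDA2R-binding one. The short gene models Gm14829, Gm14828 and Mir676 overlap Eda, and strand handling of the counting is not given in the sources used here.

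Edar, the receptor of hair placodes, was the only member whose mean lay below control, at 14 days and at 6 days. Edar (Entrez Gene 13608, chromosome 10, 58600780 to 58675696) had 0.842, 0.846 and 0.993 CPM at 14 days, a lowest value of 0.459, a median of 1.18 and a highest of 5.40 CPM at 6 days, and 4.93, 26.6, 13.8 and 17.5 CPM in control. Every 14-day library lay below every control, and 7 of 8 6-day libraries did. The exception was 6-day replicate 7 (5.40 CPM, from 1267 reads), which stood just above control replicate 1 (4.93 CPM, from 182 reads). The log2 fold change was -4.13 (SE 0.86) at 14 days and -3.28 (SE 0.57) at 6 days, or -3.92 without 6-day replicate 7. The 6-day value was -3.74 in range A alone and -2.87 in range B alone. Of the 5 members, 2 had 14-day libraries that did not overlap control (Edar below, Eda2r above), as had 23.4% of all 18751 genes tested, with 11.7% wholly below and 11.7% wholly above. At 6 days 0 of 5 members were free of overlap with control, against 2.69% of all genes.

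Setting ligand beside receptor per unit length put the treated and control libraries on opposite sides of equality. By the authors' RPKM (reads scaled to gene length and library size, with their size factors), the Eda level was 10.97, 14.6 and 11.7 times the Edar level at 14 days, 2.69 to 38.2 times at 6 days (median 10.1), and 0.567, 0.208, 0.607 and 0.547 times in control. Eda exceeded Edar in 3 of 3 14-day, 8 of 8 6-day and 0 of 4 control libraries. The ratio rests on the same contrasts as the choice of the genes and was not tested. The plot of Eda against Edar shows this with each library's number.

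**Figure D1:**
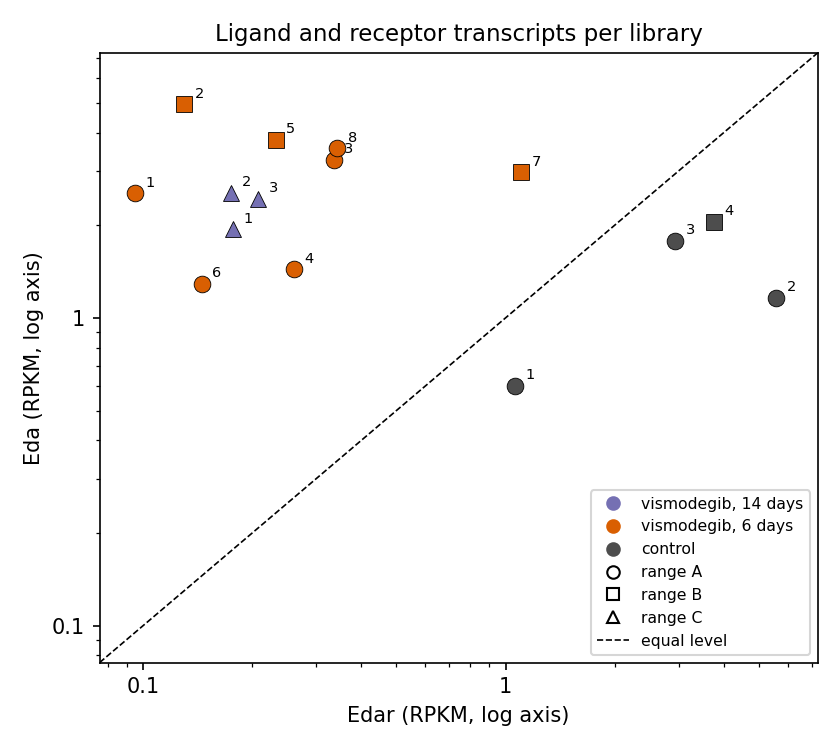
Eda level (vertical axis) against Edar level (horizontal axis) in RPKM on log axes, 1 point per library, coloured by group, shaped by identifier range and numbered by replicate; the dashed line marks equal levels. All 11 treated points lie above the line and the 4 control points below it, with 6-day replicate 7 nearest to the line among treated libraries.

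Eda2r, the receptor of the shorter splice form, had its highest mean at 14 days and varied widely within the 6-day and control groups. Eda2r (Entrez Gene 245527, chromosome X, 97333837 to 97377234) had 11.9, 10.1 and 10.1 CPM at 14 days, a lowest value of 2.11, a median of 4.01 and a highest of 10.3 CPM at 6 days, and 9.38, 3.03, 2.78 and 5.47 CPM in control. The 14-day libraries all lay above the controls, while 6-day replicates 1, 4 and 6 (10.3, 7.59 and 9.39 CPM) stood near control replicate 1 and the other 5 stood between 2.11 and 4.33 CPM. The log2 fold change was 1.05 (SE 0.57) at 14 days and 0.06 (SE 0.46) at 6 days. Within range A it was 0.37 and within range B -0.70 at 6 days. The gene model Gm18111 overlaps Eda2r.

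Tnfrsf19 had the widest range of the 5 members, as the ratio of its highest to its lowest library. Tnfrsf19 (Entrez Gene 29820, chromosome 14, 60963834 to 61046855, overlapped by the gene model Gm41167) had 376.5, 38.8 and 105 CPM at 14 days, a lowest value of 7.41, a median of 23.4 and a highest of 63.9 CPM at 6 days, and 44.0, 6.83, 15.5 and 3.32 CPM in control. The groups overlapped, since 14-day replicate 2 lay below control replicate 1, while the other two 14-day libraries lay above every other library. The log2 fold change against control was 3.32 (SE 0.94) at 14 days, but 2.05 without 14-day replicate 1 and 4.36 without control replicate 1. At 6 days it was 0.65 (SE 0.74), 1.64 without control replicate 1, 0.49 in range A alone and 2.60 in range B, which has 1 control. The keratinocyte marker sum was also the highest of its group in 14-day replicate 1 and in control replicate 1. Its part in the Tnfrsf19 values was not tested. Per unit length, Tnfrsf19 ranked 4 of 28 TNF receptor genes at 14 days (30.3 ± 31.4 RPKM), 8 of 28 at 6 days (4.72 ± 3.34 RPKM) and 11 of 28 in control (3.11 ± 3.32 RPKM). Edar ranked 17 of 28 at 6 days (0.331 ± 0.326 RPKM) and 10 of 28 in control (3.33 ± 1.87 RPKM).

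Edaradd, the adaptor that EDAR needs to signal, had the narrowest such range. Edaradd (Entrez Gene 171211, chromosome 13, 12471209 to 12520535) had 83.6, 43.3 and 60.5 CPM at 14 days, a lowest value of 32.2, a median of 45.2 and a highest of 62.6 CPM at 6 days, and 43.0, 43.8, 41.8 and 46.3 CPM in control. The 4 controls lay inside the range of the 6-day libraries. The log2 fold change against control was 0.51 (SE 0.24) at 14 days and 0.08 (SE 0.20) at 6 days.

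**Figure D2:**
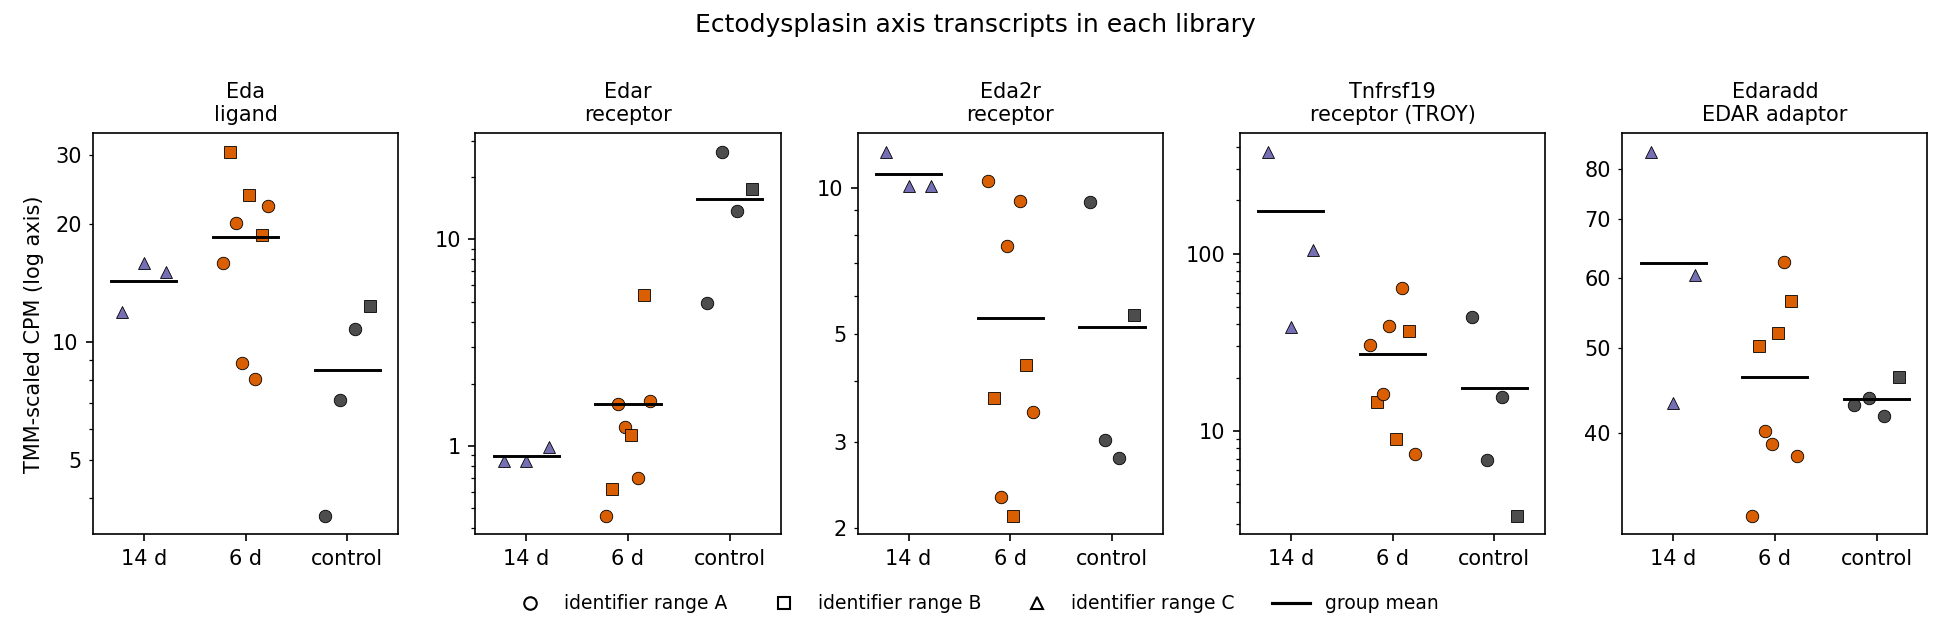
TMM-scaled CPM of the 5 genes on log axes that differ in scale between panels, 1 point per library, with groups from left to right 14 days, 6 days and control; shapes give the identifier range and bars the group mean. Edar is low in the treated libraries and Eda mostly high, Tnfrsf19 spreads from 38.8 to 376.5 CPM at 14 days, and Edaradd stays between 32.2 and 83.6 CPM throughout.

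The order of the 5 levels per unit length also differed. In all 3 14-day libraries the order by RPKM was Tnfrsf19, Edaradd, Eda, Eda2r and Edar, and of the 4 pairs of neighbours in this order only Tnfrsf19 and Edaradd had ranges that overlapped (6.69 to 65.9 and 4.27 to 8.36 RPKM). At 6 days Tnfrsf19 led in 4 libraries and Edaradd in 4, and Edar was last in 6 of 8. The 6-day means were 4.72 RPKM for Tnfrsf19, 4.58 for Edaradd, 2.98 for Eda, 0.726 for Eda2r and 0.331 for Edar, and neighbours overlapped at each step. In control the means were 4.44 RPKM for Edaradd, 3.33 for Edar, 3.11 for Tnfrsf19, 1.401 for Eda and 0.715 for Eda2r, again with neighbours overlapping at each step.

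The step from 6 to 14 days, a contrast that shares its libraries with both others, was tested. In edgeR's quasi-likelihood test with Benjamini-Hochberg adjustment, 3.89% of all genes were called at an adjusted p under 0.05, and 0 of the 5 members were. All 5 overlapped between 14 and 6 days, where 11.7% of all genes did not. At an unadjusted p under 0.05 the count of members was 1, Tnfrsf19. DESeq2 called 1 member, also Tnfrsf19, where it called 2609 of all 18751 genes. Unadjusted p-values were not counted over all genes, so such counts, here and below, have no share beside them. Without that share they are not read as an excess. Tnfrsf19 averaged 173 ± 179 CPM at 14 days (SD, n = 3) and 27.2 ± 19.3 CPM at 6 days (SD, n = 8), a log2 fold change of 2.67 (SE 0.73, edgeR adjusted p = 0.0552). It was 1.41 (adjusted p = 0.534) without 14-day replicate 1, and it was called in 4 of 15 fits that left out a library: 14-day replicate 2 (adjusted p = 0.0385), 6-day replicate 6 (0.0468), control replicate 1 (0.0372) or control replicate 4 (0.0365). For the others the edgeR log2 fold change and adjusted p were 0.98 and 0.238 for Eda2r, 0.43 and 0.237 for Edaradd, -0.37 and 0.625 for Eda, and -0.85 and 0.480 for Edar, the last being -0.23 without 6-day replicate 7. The leukocyte marker sum was also higher at 14 days, and its part in these values was not tested. Whether the 6-day effect differed between ranges A and B was tested in the same way over 17843 genes, of which 0.056% were called. Of the 5 genes 0 were called by edgeR, with 0 at an unadjusted p under 0.05 and the smallest p at 0.167, for Tnfrsf19, whose effect was higher by 2.11 on the log2 scale in range B (SE 1.43). Range B has 1 control, assumed to vary like the other groups, so the test does not show that the ranges had the same effect. DESeq2 was not run for this test.

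Tnfrsf19 and Eda2r tended to be high in the same libraries. They are shown because their correlation was the highest of any pair of members, the others running from -0.519 to 0.591. Over the 15 libraries their log2 CPM values correlated at r = 0.719 (Spearman rho 0.704), at r = 0.820 over the 8 libraries of range A, and at r = 0.734 over 13 libraries without the 2 whose Eda2r was farthest from the median. Libraries of 1 group share their treatment and those of 1 range may share their handling, so these are descriptions. The 4 libraries of range A with the highest Eda2r (6-day replicates 1, 4 and 6 and control replicate 1) were also the 4 of that range with the highest Tnfrsf19, at 30.5, 39.3, 63.9 and 44.0 CPM. These 4 were picked out after their values were seen.

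**Figure D3:**
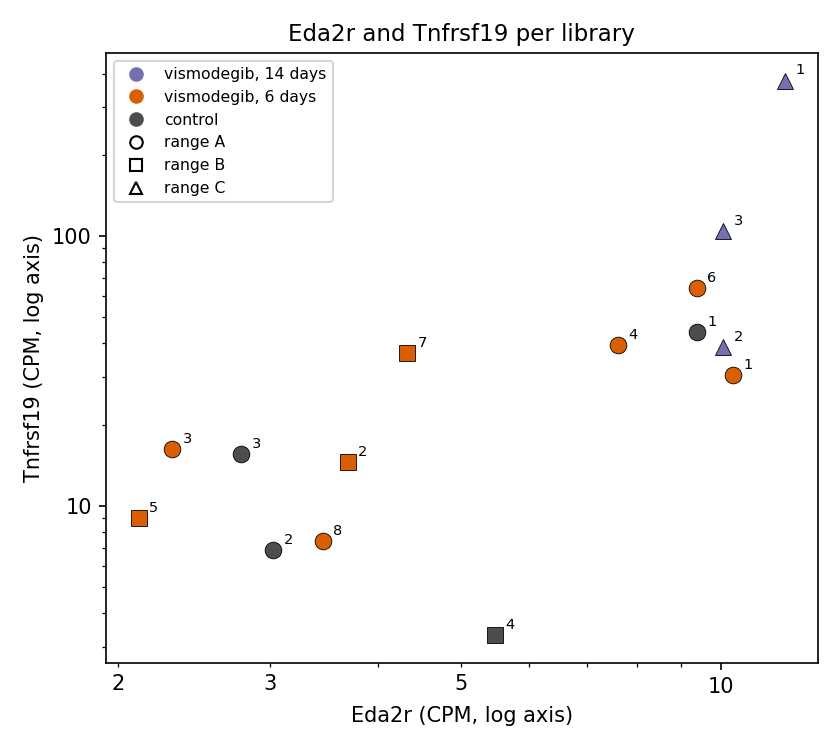
Tnfrsf19 (vertical axis) against Eda2r (horizontal axis) in TMM-scaled CPM on log axes, 1 point per library, coloured by group, shaped by identifier range and numbered by replicate. The 3 14-day libraries, 6-day replicates 1, 4 and 6 and control replicate 1 form the right side of the plot, from 7.59 to 11.9 CPM of Eda2r and 30.5 to 376.5 CPM of Tnfrsf19. Left of them, 6-day replicate 7 had 36.9 CPM of Tnfrsf19 with 4.33 CPM of Eda2r.

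Among 10060 well expressed genes, those whose log2 CPM followed each member most closely over the 15 libraries are named as descriptions of likeness. Correlations over all libraries include the differences between groups on which the members were selected. For Edar they were Pappa, a protease of IGF-binding proteins (r = 0.956), the growth arrest gene Gadd45a (0.949) and Fndc1 (0.934). For Tnfrsf19 they were the glycolipid transfer protein gene Gltp (0.962), Susd2 (0.953) and Clca2 (0.944). For Eda2r they were the scaffold gene Dlg2 (0.891), the aryl hydrocarbon receptor gene Ahr (0.885) and Apcdd1, an inhibitor of Wnt signalling (0.870). For Eda they were the mitochondrial carrier gene Slc25a36 (0.904), Arhgap44 (0.892) and Kidins220 (0.871), and for Edaradd they were Acap3 (0.882), Psd4 (0.877) and the semaphorin gene Sema3f (0.854). Over the 8 libraries of range A the same correlations ran from 0.595 for Edaradd with Sema3f to 0.971 for Edar with Pappa. Gadd45a averaged 7.5 CPM at 14 days, 9.54 CPM at 6 days and 55.3 CPM in control, and Apcdd1 256, 92.5 and 57.8 CPM in the same order of groups.

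Downstream of the receptors, the relay to NF-kB was described through 16 transducer genes. As background for this and later lists, DESeq2 called 2752 of 18751 genes at 14 days against control and 846 at 6 days. At 14 against 6 days it called 2609. The counts at an unadjusted p under 0.05 in this and later lists have no such background and are not read as an excess. All 16 were tested, and 0 were called against control at 14 days and 0 at 6 days by edgeR (8 and 0 at an unadjusted p under 0.05, 2 and 0 by DESeq2), where 6.60% and 1.26% of all genes were called. At 14 against 6 days 1 was called higher by edgeR (7 at an unadjusted p under 0.05, 3 by DESeq2), where 3.89% of all genes were called. That gene was Ikbkg, which encodes the regulatory IKK subunit NEMO, with 143, 123 and 138 CPM at 14 days and 45.4 to 99.7 CPM at 6 days (median 79.1). The 14-day libraries lay above all others, and the log2 fold change against 6 days was 0.75 (SE 0.19, edgeR adjusted p = 0.0403), but the call was lost in 10 of 15 fits that left out a library, each 14-day library among them (highest adjusted p = 0.283). Traf6, the ubiquitin ligase next to EDARADD, averaged 81.5 CPM at 14 days, 56.5 CPM at 6 days and 62.8 CPM in control and was not called (edgeR adjusted p = 0.0825 for 14 against 6 days). The median log2 fold change of the 16 was 0.35 at 14 days and 0.07 at 6 days against control, beside -0.02 and 0.03 over all genes.

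Of 7 NF-kB inhibitors and feedback genes, Cyld, a deubiquitinase that restrains the pathway, was the 1 called by edgeR at 14 days against control (2 at an unadjusted p under 0.05, 2 by DESeq2), where 6.60% of all genes were called. At 6 days 0 were called (3 at an unadjusted p under 0.05, 1 by DESeq2), against 1.26% of all genes, and at 14 against 6 days 0 (1 and 0), against 3.89%. Cyld had 81.6, 89.1 and 76.1 CPM at 14 days and 53.2, 62.7, 62.1 and 49.1 CPM in control. The groups did not overlap (log2 fold change 0.54, SE 0.15, edgeR adjusted p = 0.0458), but the call was lost in 12 of 15 fits that left out a library, each 14-day and each control library among them (highest adjusted p = 0.143), with RLE scaling (0.0551) and with no filter on low counts (0.0652). Nfkbia, the immediate feedback inhibitor that NF-kB induces, averaged 166 CPM at 14 days, 194 CPM at 6 days and 85.7 CPM in control and was not called (edgeR adjusted p = 0.287 at 14 days and 0.251 at 6 days). Furin, the protease that can release the ligand, averaged 185 CPM at 14 days, 289 CPM at 6 days and 372 CPM in control (edgeR adjusted p = 0.0899 at 14 days), and of the 4 protease genes 0 were called by edgeR in any comparison (3, 1 and 1 at an unadjusted p under 0.05, and 2, 0 and 1 by DESeq2, for 14 days and 6 days against control and 14 against 6 days).

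Among 16 genes known as targets of EDAR in placodes or skin, 11 were tested. By edgeR 1 was called at 14 days against control (6 at an unadjusted p under 0.05, 5 by DESeq2), 1 at 6 days (4 and 1) and 0 at 14 against 6 days (2 and 1). The shares of all genes called by edgeR were 6.60%, 1.26% and 3.89%. The gene called in both comparisons against control was Ccn2. Ccn2, a matricellular protein gene that other pathways also induce, had 331, 860 and 947 CPM at 14 days, 260 to 1956 CPM at 6 days (median 828.5) and 90.8, 157, 155 and 97.5 CPM in control. Every treated library lay above every control. The log2 fold change was 2.51 (SE 0.54, edgeR adjusted p = 0.0147) at 14 days and 2.84 (SE 0.50, adjusted p = 0.0141) at 6 days, being 3.12 for range A alone and 2.12 for range B alone (adjusted p = 0.0826). The call was lost without 14-day replicate 3 at 14 days (0.0589) and without control replicate 2 at 6 days (0.0502). Ccn2 was already known to be called when the list was made, so its count is no independent evidence. Several placode genes were near 0: Shh reached 0.809 CPM in any library, Fgf20 0.237 CPM and Dkk4 0.0553 CPM, and these with Ltb and Madcam1 did not pass the filter on low counts. Foxi3, a placode forkhead gene, averaged 17.7 ± 9.90 CPM at 14 days, 25.6 ± 15.9 CPM at 6 days and 35.7 ± 22.3 CPM in control (edgeR adjusted p = 0.340 at 14 days and 0.807 at 6 days). Wnt10b, a ligand of early placodes, averaged 0.897 CPM at 14 days, 2.44 CPM at 6 days and 0.531 CPM in control (edgeR adjusted p = 0.731 at 14 days and 0.347 at 6 days). The median log2 fold change of the 11 was -0.09 at 14 days and -0.36 at 6 days.

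Within the wider TNF family, 20 of 25 other receptor genes and 10 of 16 other ligand genes were tested. Of the receptors edgeR called 0 at 14 days against control, 1 at 6 days and 1 at 14 against 6 days. Of the ligands it called 1, 0 and 1, in the same order. The shares of all genes called by edgeR were 6.6%, 1.26% and 3.89%. Ltbr, the lymphotoxin beta receptor, was called at 6 days, with 44.1 to 81.0 CPM (median 54.2) at 6 days and 32.7, 18.1, 18.7 and 38.7 CPM in control. The groups did not overlap (log2 fold change 1.08, SE 0.23, edgeR adjusted p = 0.0362, being 1.08 for range A alone and 0.84, adjusted p = 0.106, in range B), but the call was lost in 8 of 15 fits that left out a library, among them control replicates 2 and 3 (highest adjusted p = 0.134). At 14 days Ltbr averaged 47.3 CPM (adjusted p = 0.0878 against control). Tnfrsf11a, which encodes RANK, had 17.9, 2.10 and 6.51 CPM at 14 days and 0.153 to 1.45 CPM at 6 days (median 0.857). The 6-day values came from 5 to 212 reads, with 5 reads each in replicates 1 and 6 of range A, near the floor. All 14-day libraries lay above all 6-day libraries (log2 fold change 3.39, SE 0.64, edgeR adjusted p = 0.0144), and the call was lost without 14-day replicate 1 (2.37, adjusted p = 0.236) or replicate 3 (0.0573). Against control, whose mean was 1.37 CPM, it was not called at 14 days (edgeR adjusted p = 0.0540). RANK is also known from myeloid cells. Of 5 leukocyte markers tested, 2 (C1qa and Csf1r) were called higher at 14 against 6 days, where 3.89% of all genes were called. Of the 5 markers, 4 had a positive log2 fold change there and 1 a negative one. Against control 0 of them were called at 14 days and 0 at 6 days. The leukocyte sum was 16.6 to 25.1 CPM at 14 days and 1.05 to 9.52 CPM at 6 days, and its part in the Tnfrsf11a values was not tested.

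Tnfsf11, which encodes the RANK ligand RANKL, changed the other way at low levels. Tnfsf11 had 0.0616, 0.0388 and 0.0421 CPM at 14 days, from 9, 5 and 5 reads, 0.0789 to 1.12 CPM at 6 days (median 0.532), and 0.298, 1.04, 0.344 and 2.05 CPM in control. Each 14-day library lay below every other library. The log2 fold change was -4.26 (SE 1.0, edgeR adjusted p = 0.0204) against control and -3.52 (SE 0.92, adjusted p = 0.0467) against 6 days. The first was -3.52 without control replicate 4, and the call was lost without any 1 of the 3 14-day libraries (highest adjusted p = 0.0905). The second was lost in 12 of 15 such fits (highest adjusted p = 0.283) and with no filter on low counts (0.0696), and Tnfsf11 was too low to be kept by a filter of 1 CPM in 4 libraries. No other receptor or ligand on these lists was called by edgeR in any of the 3 comparisons. DESeq2 called 2 of the 20 receptors at 14 days against control, 4 at 6 days and 3 at 14 against 6 days (4, 6 and 5 at an unadjusted p under 0.05 by edgeR), and of the 10 ligands 2, 0 and 3 (4, 0 and 3). Over all 18751 genes DESeq2 called 2752, 846 and 2609, in the same order. Ngfr had medians of 5.66 CPM at 14 days, 1.99 CPM at 6 days, where replicate 7 stood alone at 35.0 CPM, and 4.40 CPM in control. Tnfrsf21 had 91.2, 6.44 and 29.2 CPM at 14 days, a median of 11.9 CPM at 6 days and 18.9 CPM in control, its 14-day mean of 42.3 CPM resting on replicate 1. Mean levels at 14 days, at 6 days and in control were, for Fas, 15.9, 20.01 and 14.1 CPM, and for Tnfrsf12a 35.8, 59.0 and 56.5 CPM, in that order of groups.

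**Figure D4:**
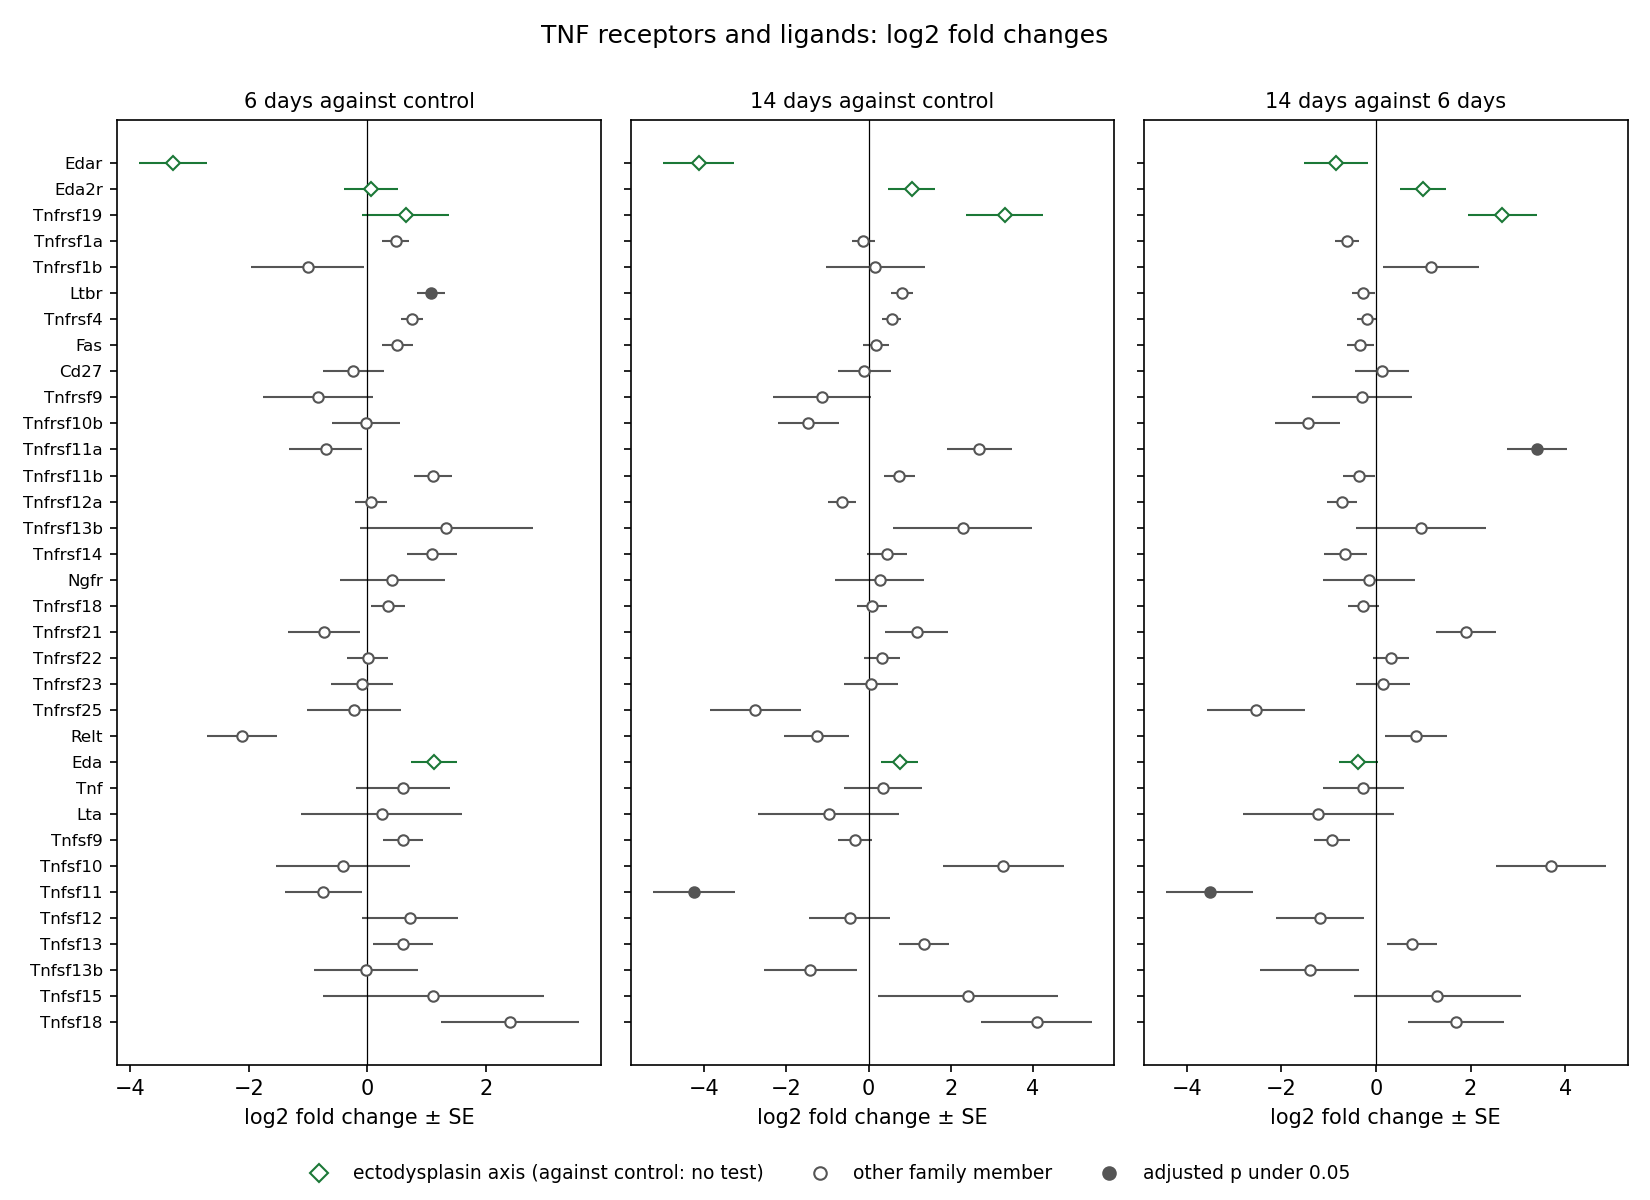
Log2 fold change with its SE (edgeR) for the tested TNF receptor and ligand genes in the 3 comparisons, with diamonds for the ectodysplasin axis and circles for the rest; filled symbols passed an adjusted p under 0.05, and the axis genes carry no test against control. Edar lies furthest to the left among receptors against control at both times, Tnfrsf19 and Tnfrsf11a lie to the right at 14 days, and the filled points are Ltbr, Tnfrsf11a and Tnfsf11.

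Eda2r is also known as a target of p53, and every group carried the conditional p53 allele. Trp53 itself, whose reads from any remaining exons are counted, averaged 95.04 CPM at 14 days, 110 CPM at 6 days and 130 CPM in control (edgeR adjusted p = 0.158 at 14 days and 0.584 at 6 days). Of 13 other p53 targets tested, 2 were called lower by edgeR at 14 days against control (3 at an unadjusted p under 0.05, 2 by DESeq2), 0 at 6 days (4 and 1) and 1 at 14 against 6 days (5 and 4). The shares of all genes called by edgeR were 6.6%, 1.26% and 3.89%. At 14 days against control, 7 of the 13 had a positive log2 fold change and 6 a negative one. Their median was 0.12, beside -0.02 over all genes. Bbc3, the gene of the apoptosis inducer PUMA, had 8.55, 6.54 and 7.76 CPM at 14 days and 15.1, 28.6, 19.8 and 33.4 CPM in control, with no overlap (log2 fold change -1.67, SE 0.30, edgeR adjusted p = 0.00647). That call was kept in 15 of 15 fits that left out a library. Bax, a pore-forming apoptosis gene, had 37.6, 45.9 and 44.1 CPM at 14 days and 82.3, 80.2, 93.8 and 70.7 CPM in control (log2 fold change -0.94, SE 0.20, edgeR adjusted p = 0.0134), and was not called without 14-day replicate 1 (0.0781) or replicate 3 (0.0523). Against 6 days Bax was also lower at 14 days (-0.80, SE 0.18, edgeR adjusted p = 0.0293), a call lost without replicate 1 (0.261), 2 (0.0504) or 3 (0.110) at 14 days or replicate 5 at 6 days (0.0506), and with no filter on low counts (0.0545). Cdkn1a, the cell cycle inhibitor that p53 induces, averaged 70.2, 65.4 and 91.6 CPM and Mdm2, which degrades p53, 77.6, 93.9 and 95.4 CPM at 14 days, 6 days and in control, with neither called (smallest edgeR adjusted p = 0.281).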

How the data were processed

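PolyA RNA of 15 libraries of sorted mouse tumour cells was analysed. The deposited counts are uniquely aligned reads per gene model and the deposited RPKM values were adjusted by a size factor, both per the file headers. The RPKM served only to compare levels between genes. GSNAP and GRCm38 are named in the submitters' processing notes. The aligner's version, the annotation and strand handling: not given in the sources used here. Of 36528 Entrez identifiers, 31049 matched a RefSeq table of GRCm38.p6, the source of names, coordinates and upstream sequences.

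Groups came from the treatment label, and replicate numbers follow accession order. All 105 pairs of libraries differed beyond sampling noise, with a chi-square of at least 52.8 per degree of freedom. The main test on counts was that of edgeR 4.0.16 (R 4.3.3, TMM, filterByExpr, quasi-likelihood) in 1 fit of all 15 libraries, which left 18751 genes and 12 residual degrees of freedom. Benjamini-Hochberg adjusted p under 0.05 was the threshold over all genes. The script was checked on simulated data. The genes and lists were chosen with earlier results of these data known. Named were the 5 members, list genes called in any comparison, 15 genes fixed by name, and per member the 3 genes of highest correlation of log2 CPM (prior count 2, mean of at least 10 CPM). Alternatives were RLE scaling, DESeq2 1.42.0, 2 filters, identifier ranges and each library left out. Python 3.11.15 and matplotlib 3.10.9 were used elsewhere.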

Additional observations from a re-analysis of the deposited data

Results flagged for a closer look

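Of 50 sets of values screened (the tested named genes at 6 days and in control), 5 held a library far from the rest of its group. Chance gives about 1 in 20 if CPM values are normally distributed, which was not checked, so 5 of 50 is not read as an excess. Edar in 6-day replicate 7 had 5.40 CPM, against 1.66 CPM in the next highest 6-day library. Ngfr was highest in the same library, at 35.0 CPM against 4.97 CPM in the next. Ikbkg was lowest in 6-day replicate 6, at 45.4 CPM against 77.6 CPM, and in control replicate 4, at 67.4 CPM against 91.3 CPM. Nfkbia was highest in control replicate 1, at 167 CPM against 63.7 CPM in the next highest control, and that library also had the lowest Edar and the highest Eda2r and Tnfrsf19 of the controls.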

How the results depend on the processing

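The log2 fold changes of Eda, Edar, Eda2r and Edaradd against control moved by less than 1 SD between libraries under every alternative run, and Tnfrsf19 moved further only within range B (2.60 at 6 days). No called result changed direction. The number of genes called at 6 days against control (236) was 846 with DESeq2, 866 with the identifier range as a covariate and 468 within range A, and 69 to 308 with a library left out. At 14 days against control (1238) it was 2752 with DESeq2 and 376 to 1438 with a library left out. At 14 against 6 days (730) it was 2609 with DESeq2, 460 with no filter on low counts, and 3 to 1138 with a library left out, the 3 without 14-day replicate 1. The shares of all genes called at 6 days, at 14 days and at 14 against 6 days were 1.26%, 6.60% and 3.89%. Of 81 tested pathway genes, 2 were called at 6 days (2.47%), 5 at 14 days (6.17%) and 4 between them (4.94%). These counts were 7, 17 and 15 with DESeq2, 6 at 6 days with the range as a covariate, 5 within range A, 4 within range B, and 2 between the times with no filter. With a library left out they ran from 0 to 3, 1 to 8 and 0 to 5. Of the members, DESeq2 called 1 at 14 against 6 days, and 0 to 1 were called with a library left out. The test between ranges called 0 members in each run, and could not be run without control replicate 4, the only control of range B. No paired analysis was possible because the labels carry no replicate numbers. The lowest count of a member was 15, for Edar at 6 days in range A, where depth was lower than in ranges B and C. Members were not compared at matched depth.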
